A study of Mus musculus with 15 samples.

Results

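The genes described here make fatty acids and cholesterol, or control that synthesis. Of 37 genes on the list, 36 were found among the 26061 genes of the table, and Hmgcs1, the HMG-CoA synthase gene, was not analysed here. The list was drawn up because Scd1 was higher in embryonic stem cells (ESCs) with less TET1, and the question was whether the genes that share its regulators were higher with it. The value that prompted the list was therefore Scd1 in shTet1 against shScr, so all member values in that comparison are given as a description, and nothing is read from the counts of calls in it.

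Cells adjust the synthesis of cholesterol and fatty acids through the sterol regulatory element-binding proteins (SREBPs). These transcription factors are made as precursors in the endoplasmic reticulum membrane, where SCAP escorts them and the INSIG proteins hold SCAP back while sterols are plentiful. When sterols run low, SCAP carries the precursors to the Golgi, proteases release the active factor, and it binds sterol regulatory elements next to sites for factors such as NF-Y. SREBF2 acts mostly on sterol synthesis and SREBF1 mostly on fatty acid synthesis, and both act on INSIG1, which closes a feedback loop.

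The RNA came from E14, a mouse ESC line, and rRNA-depleted total RNA was sequenced in 15 libraries, with 5 in each of 3 groups. The shScr group carried a non-targeting short hairpin RNA, the shTet1 group a hairpin against Tet1 and the shTet2 group a hairpin against Tet2, all delivered in lentiviral pLKO.1. All groups grew in medium with 15% serum and LIF, were put under 1 µg/ml puromycin (per the labels, while the study's methods state another concentration) from 24 hours after transduction, and were collected after 3 days of selection. TET1 and TET2 are enzymes that oxidise methylated cytosine in DNA. Each gene was targeted with a single hairpin, so what the hairpin does by itself and what the lost enzyme does cannot be told apart. The labels do not say whether replicates came from separate cultures, so p-values measure the spread between these libraries only.

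Reads recovered in genes ranged from 15258291 to 35432425 per library. Tet1 reads in shTet1 averaged 27.8% of those in shScr, and Tet2 reads in shTet2 averaged 26.6%. The 8 pluripotency markers summed to 4763 to 5135 RPM (reads scaled to the gene reads of the library) in the shScr libraries, 5325 to 6510 in those of shTet1 and 3977 to 5443 in those of shTet2. Primitive endoderm markers (6 genes) summed to 26.4 to 41.5 RPM in shScr, 18.2 to 31.3 in shTet1 and 8.78 to 22.6 in shTet2, so that shTet2 lay below shScr. Trophoblast markers (5 genes) summed to 3.01 to 6.51, 6.28 to 11.1 and 4.52 to 10.7 in the same order. Mesenchymal markers (5 genes) summed to 4.36 to 11.3, 6.83 to 9.32 and 11.01 to 13.1, so that shTet2 lay above shTet1, and Cdx2, Elf5, Gata3, Col1a1 and Col3a1 were at 0 in some libraries. Olfactory and vomeronasal receptor genes took 54.5 to 64.7 RPM in shScr replicate 4, shTet1 replicates 3 and 4 and shTet2 replicate 4, against 11.1 to 26.5 in the other libraries. In bulk RNA, fewer cells of a type and less RNA per cell cannot be told apart.

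Promoter sequence is shown first, because SREBPs act there together with NF-Y, whose site holds the letters CCAAT, which the other strand reads as ATTGG. RefSeq windows of 300 bases (GRCm38.p6) were found for 29 of the 36 members, and there was no entry for Scd1, Scd2, Fads1, Fdps, Fdft1, Sqle and Stard4. Sc4mol was matched through its later symbol Msmo1. Searched on both strands, CCAAT was in at least 1 window of 25 of the 29 members and of 41.1% of 27025 genes. The E-box CACGTG was in 6 members and in 8.09% of all genes. The sterol regulatory element letters TCACNCCAC were in 0 of the 29 members and in 1.44% of all genes, and the shorter TCACNCCA, which contains them save the last base, was in 3 members (Gpam, Sc4mol and Srebf2) and in 4.97% of all genes. The members with a window but without CCAAT were Acaca, Fads2, Elovl6 and Scap, and Elovl6, on which a comparison below turns, held none of these motifs. A match is a run of letters and not a bound site, and a window without a match says nothing about the factor.

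Stretches of 30 bases upstream of the transcription start are shown for 11 members, picked by hand among those that hold one of these motifs. Other members with a motif, Gpam among them, are not shown, so nothing is read from the choice. The motifs are in capitals, 5′ to 3′ on the strand of the gene.
Acsl3: gccaccgcccgcgggCCAATgggcggcggt
Sc5d: gcgccggctgctgATTGGccggctgcctgc
Mvd: cccggccagcgggCCAATcatatggcagcg
Cyp51: ccgctgtccgccaCCAATctggtcctgaga
Lbr: aaaggtcgagggaCCAATggggagctcagg
Nsdhl: aaagactagcctcATTGGgcaaaatcatgc
Idi1: catggtccaaggtgccATTGGctggcgacc
Fasn: gcctcggtgtCCAATTGGtttcgatgtgga
Insig1: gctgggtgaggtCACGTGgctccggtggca
Sc4mol: ttcTCACTCCAtccgcgcagCCAATgactg
Srebf2: atgacgcaccaTCACCCCAtgagccgcttc

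In the first 7 of these stretches the capitals mark a single NF-Y motif on either strand, and Fasn holds an overlapping pair of them. The capitals mark the E-box in Insig1 and the TCACNCCA letters in Srebf2, whereas Sc4mol holds TCACNCCA and CCAAT within the same stretch. In GRCm38.p6 the stretches lie at chr1:78657795-78657824 (plus strand, bases 30 to 1 before the start) for Acsl3, chr9:42264308-42264337 (minus strand, bases 37 to 8 before the start) for Sc5d and chr8:122443433-122443462 (minus strand, bases 40 to 11 before the start) for Mvd. Cyp51 is at chr5:4104710-4104739 (minus strand, bases 42 to 13 before the start), Lbr at chr1:181842413-181842442 (minus strand, bases 41 to 12 before the start) and Nsdhl at chrX:72918488-72918517 (plus strand, bases 33 to 4 before the start). Idi1 is at chr13:8885576-8885605 (plus strand, bases 30 to 1 before the start), Fasn at chr11:120824590-120824619 (minus strand, bases 72 to 43 before the start) and Insig1 at chr5:28071299-28071328 (plus strand, bases 113 to 84 before the start). Sc4mol is at chr8:64733729-64733758 (minus strand, bases 180 to 151 before the start) and Srebf2 at chr15:82147096-82147125 (plus strand, bases 173 to 144 before the start).

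All 36 members had reads in every library, so none was lost to the filter on low values. Levels per length are given as RPKM, the reads per kb of exon scaled to the gene reads of the library. In shScr the highest level was that of Acly, ATP citrate lyase, which makes cytosolic acetyl-CoA (71.3 ± 9.10, SD, n = 5). Next came Lbr, a nuclear membrane protein that is also a sterol reductase (66.6 ± 9.37), Scd2, a stearoyl-CoA desaturase (50.9 ± 18.3), and Elovl6, which elongates C16 fatty acids (35.2 ± 7.45). The shScr ranges of neighbours in this order overlapped for these 4 genes. Scd1, the desaturase that gives the list its starting point, was 19th of 36 at 7.13 ± 1.97, below its neighbour Scd2 in every shScr library. Srebf2 was at 6.84 ± 1.48 and Srebf1 at 3.44 ± 1.48, and the lowest level was that of Tm7sf2, a further sterol reductase (0.839 ± 0.257). The length used was that of all exons joined, and with the longest transcript instead Tm7sf2 was at 1.95, Acacb was lowest at 1.18 and Sc4mol moved from 16.6 to 34.4, while the first 4 genes kept their order.

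**Figure D1:**
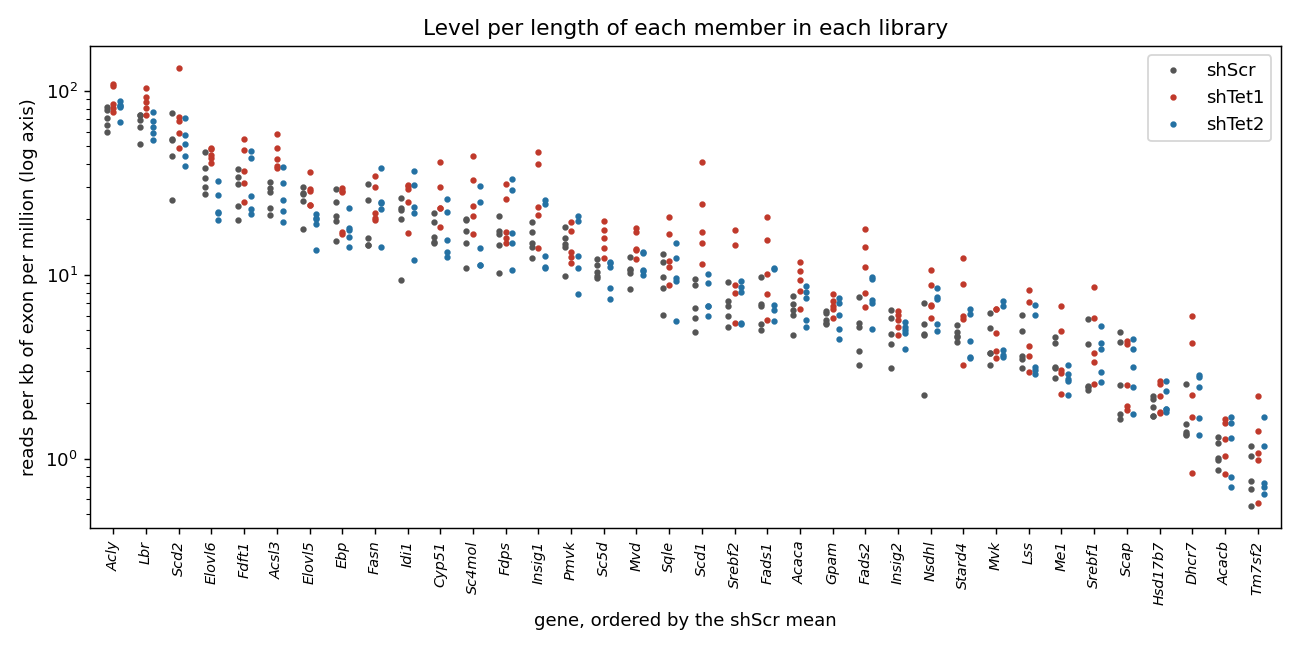
RPKM (reads per kb of exon scaled to gene reads, log axis) of the 36 members, ordered by the shScr mean, with 1 point per library (5 per group). Levels run from Acly at 71.3 to Tm7sf2 at 0.839 in shScr, and the Scd1 points of shTet1 stand above those of both other groups.

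Part of these values rests on sequence that lies elsewhere too. Of all 75-base stretches of the longest coding transcript, 82.7% of Idi1, 57.5% of Acaca, 42.5% of Fdps, 27.8% of Me1, 22.0% of Insig1 and 14.2% of Fdft1 occur at a further place in mm9. Since reads that fit several places equally well were placed at only 1 of them, the values of these 6 genes are uncertain. Scd1 had 2.56% and Elovl6 3.59%, and Acsl3, Sc5d, Cyp51, Lbr, Sc4mol, Nsdhl, Srebf1 and Srebf2 had 0. For Sc4mol the coding transcript searched has 2044 bases and the longest transcript 2969, so part of its exon sequence was not searched. Other genes cover 26.9% of the exons of Fdft1, 18.9% of Scap, 15.3% of Tm7sf2 and 5.72% of Acsl3, and whether strand was used in the counting is not given in the sources used here.

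Compared with shScr, most members were higher in shTet1 and members lay on both sides of it in shTet2. On the deposited variance-stabilised scale, which approaches log2 of the normalised reads, 34 of 36 members had a higher mean in shTet1, with a median difference of 0.36, where 52.4% of all genes tested were higher with a median of 0.013. Without Scd1, from which the list starts, these values were 33 of 35 and 0.35. In shTet2, 20 of 36 were higher than in shScr, with a median difference of 0.02 (56.8% and 0.038 over all genes). Centring each library on its median shifted the all-gene median in shTet2 to −0.07, and then 8 of 36 members were higher with a median of −0.08, whereas in shTet1 33 of 36 stayed higher with a median of 0.31. Between the knockdowns, 35 of 36 members were lower in shTet2 than in shTet1, with a median difference of −0.39 (0.015 over all genes), and without Scd1 34 of 35 with −0.38. The 3 comparisons share libraries pairwise, so that a high shTet1 value enters the first and the third alike.

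Calls were made with limma at an adjusted p (Benjamini-Hochberg over 19490 genes) under 0.05. In shTet1 against shScr, 1 member (Scd1) was called, where 0.0718% of all genes were, and 12 (Scd1 among them) with the replicate number as a block, where 4.80% of all genes were. Nothing is read from either count, since the comparison prompted the list. In shTet2 against shScr, 0 members were called, where 0.390% of all genes were, and limma-voom on the recovered reads also called 0. An unadjusted p under 0.05 was reached by 3 members and by 11.6% of all genes. In shTet2 against shTet1, 4 members were called, all lower in shTet2, where 4.24% of all genes were called. They were Scd1, whose high shTet1 values the list starts from, and 3 of the other 35 members (Elovl6, Acsl3 and Sc5d). Same-numbered libraries deviated together in this comparison, and with the block Scd1 and 15 of the other 35 members were called, all lower, where 11.2% of all genes were. Elovl6, Acsl3 and Sc5d were called in all 10 fits without the block that left out a library of either knockdown. The 15 called beside Scd1 with the block were Elovl6, Acsl3, Insig1, Sc5d, Sc4mol, Cyp51, Elovl5, Scd2, Fads1, Lbr, Sqle, Ebp, Acaca, Mvd and Fdft1.

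Members without overlap between groups were counted as well, and nothing is read from the count in shTet1 against shScr. All 5 shTet1 libraries were above all 5 shScr libraries for Scd1, Acsl3, Fads2, Mvd and Sc5d, which is 5 members, where 1.50% of all genes tested did the same. No member (0 of 36) was above all shScr libraries in all shTet2 libraries, where 1.75% of all genes were. All shTet2 libraries were below all shTet1 libraries for 7 members (Scd1, Acsl3, Elovl5, Elovl6, Mvd, Sc5d and Lbr), where 2.45% of all genes were. In same-numbered pairs, 20 members were higher in shTet1 than in shScr in 5 of 5 pairs and 11 more in 4 of 5. The share of all genes that did so was not computed, and nothing is read from these counts.

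**Figure D2:**
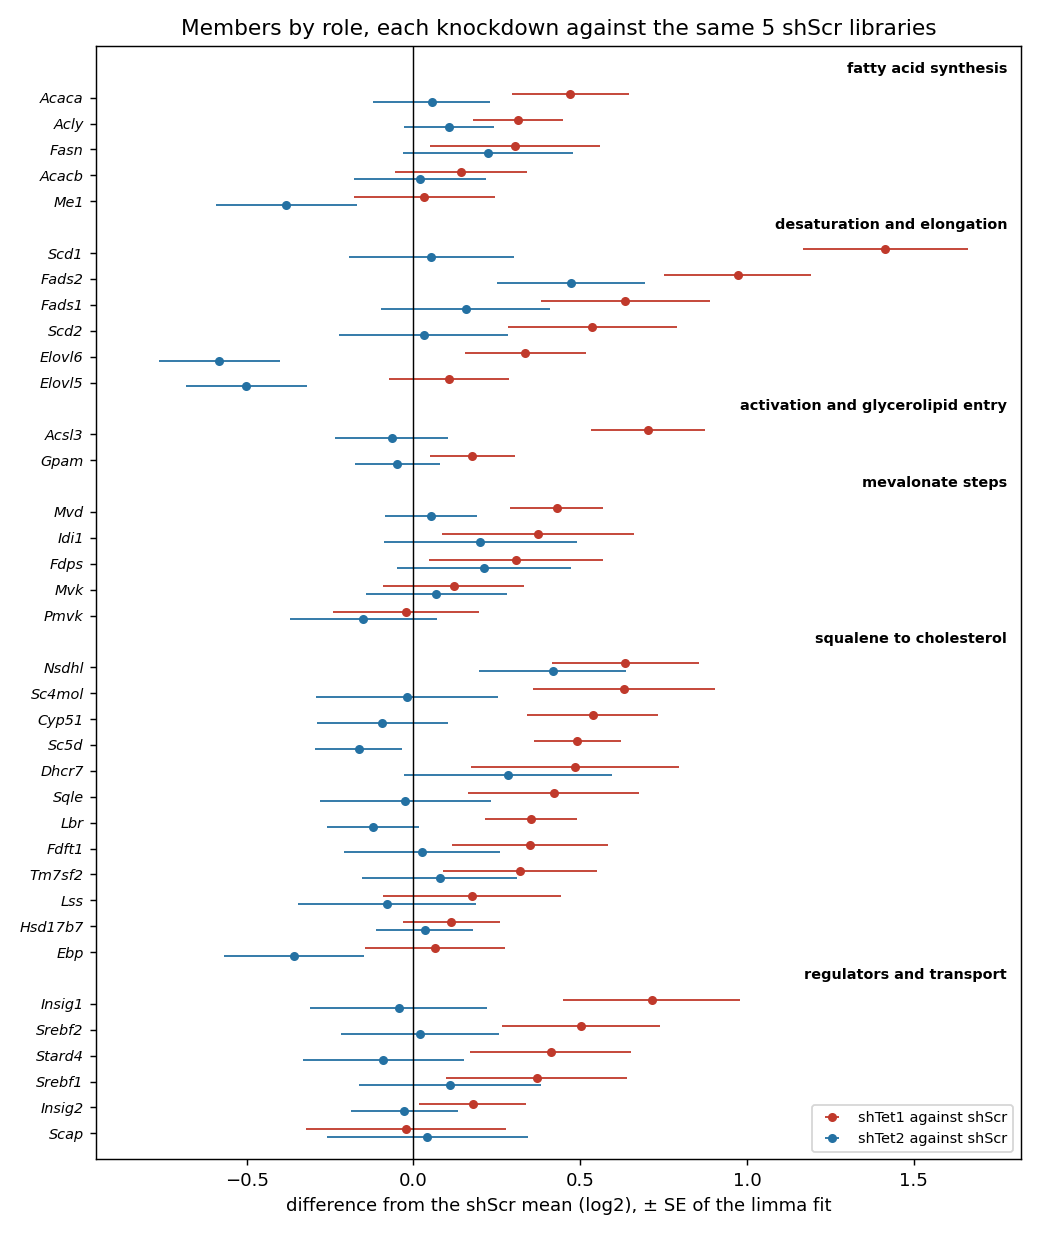
Difference of each of the 36 members from the shScr mean (log2, points) with the SE of the limma fit (bars), in shTet1 and in shTet2, grouped by role. The shTet1 points lie to the right of 0 for 34 members, up to 1.42 for Scd1, and the shTet2 points lie on both sides, from −0.58 for Elovl6 to 0.47 for Fads2.

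Scd1 (chromosome 19, 44468941 to 44482199, minus strand, mm9) encodes the enzyme that puts the double bond into palmitate and stearate. Values were 10.01, 9.20, 9.62, 9.30 and 9.98 in shScr libraries 1 to 5, 12.00, 11.27, 10.70, 10.79 and 10.42 in those of shTet1, and 10.02, 9.87, 9.60, 9.28 and 9.61 in those of shTet2. The 5 shTet1 libraries were all higher than the other 10, and replicates 1 and 2 were the highest among them. Normalised reads averaged 772 ± 208 (SD, n = 5) in shScr, 2240 ± 1099 in the shTet1 libraries and 793 ± 160 in the shTet2 libraries. The difference from shScr was 1.42 (SE 0.25) in shTet1, and it was 2.03 within replicates 1 and 2 and 1.00 within replicates 3 to 5. With a library of either group left out, the difference lay between 1.17 and 1.57. In shTet2 its difference from shScr was 0.05 (SE 0.25, 95% CI −0.47 to 0.57), which did not pass the test (limma adjusted p = 0.967). Between the knockdowns Scd1 differed by −1.36 (SE 0.25).

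Of the genes of desaturation and elongation, Scd1 included, 6 of 6 were higher in shTet1, with a median of 0.59. Scd2, which lies near Scd1 on chromosome 19 and encodes a related desaturase, was the most abundant of them. Values were 13.13, 11.68, 12.78, 12.32 and 12.74 in shScr libraries 1 to 5, 13.87, 12.94, 13.13, 12.73 and 12.67 in those of shTet1, and 12.95, 12.52, 12.80, 12.09 and 12.43 in those of shTet2. The groups overlapped, with shScr replicate 2 far below the rest and shTet1 replicate 1 the highest library. Scd2 differed from shScr by 0.54 (SE 0.25) in shTet1 and by 0.03 (SE 0.25, 95% CI −0.50 to 0.56) in shTet2 (limma adjusted p = 0.982). Fads1 and Fads2, the desaturases of polyunsaturated fatty acids, had differences of 0.64 and 0.97 in shTet1 and of 0.16 and 0.47 in shTet2. In shTet2, Fads2 had an unadjusted but no adjusted limma p under 0.05 (limma adjusted p = 0.421), and its exact permutation p was 0.0794.

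In shTet2 both elongases had negative differences from shScr. Elovl6 (chromosome 3, 129235304 to 129341413, plus strand) elongates palmitate to stearate, the substrate of the stearoyl-CoA desaturases. Values were 11.80, 12.20, 12.39, 11.90 and 12.64 in shScr libraries 1 to 5, 12.38, 12.31, 12.56, 12.58 and 12.78 in those of shTet1, and 11.26, 11.41, 11.85, 11.40 and 12.11 in those of shTet2. Every shTet2 library was below every shTet1 library, and every shTet2 library was below the shScr library of its number, although the 2 groups overlapped. Nothing is read from these pairs with shScr. The numbers did not pass as pairing in that comparison, and the share of all genes that did so was not computed. The difference between the knockdowns was −0.92 (SE 0.18, 95% CI −1.30 to −0.54), with the test passed (limma adjusted p = 0.00561). The exact permutation p was 0.00794, the smallest that 5 against 5 libraries can give. Groups without overlap always give this value, so for Elovl6 and the genes below with this p it only restates the separation. Against shScr, Elovl6 differed by 0.34 in shTet1 and by −0.58 (SE 0.18, 95% CI −0.96 to −0.20) in shTet2, which did not pass the test over all genes (limma adjusted p = 0.176, exact permutation p = 0.0397, unadjusted). Elovl5, which elongates polyunsaturated fatty acids, differed by −0.50 (SE 0.18, 95% CI −0.88 to −0.12) in shTet2 (limma adjusted p = 0.258, exact permutation p = 0.0476, unadjusted) and by 0.11 in shTet1. These are the 2 members with the most negative values in shTet2. Elovl6 was not past the threshold between the knockdowns within replicates 3 to 5 alone (adjusted p = 0.123) or without the 4 libraries of high receptor reads (0.0940), with differences of −0.86 and −0.83.

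Genes of fatty acid synthesis proper had smaller differences, with a median of 0.30 over 5 genes in shTet1 (0.18 without shScr replicate 4) and 0.05 in shTet2. Acly averaged 13.04 ± 0.21 (SD, n = 5) in shScr, against 13.36 ± 0.17 in the shTet1 libraries and 13.15 ± 0.19 in the shTet2 libraries, with a difference of 0.31 (SE 0.13) in shTet1 and 0.11 (SE 0.13) in shTet2. Acaca, the acetyl-CoA carboxylase that makes malonyl-CoA, had the largest shTet1 difference of these genes, 0.47 (SE 0.18), and 0.05 in shTet2. Fasn, the fatty acid synthase, varied more between libraries than between groups. Values were 12.70, 11.84, 11.73, 11.57 and 12.50 in shScr libraries 1 to 5, 12.76, 12.60, 12.25, 12.05 and 12.22 in those of shTet1, and 12.18, 12.31, 13.06, 11.48 and 12.44 in those of shTet2. The highest library was shTet2 replicate 3 and the lowest shTet2 replicate 4, and the groups overlapped throughout. Its difference from shScr was 0.30 (SE 0.25) in shTet1 and 0.22 (SE 0.25, 95% CI −0.31 to 0.76) in shTet2 (limma adjusted p = 0.816). Between the knockdowns Fasn differed by −0.08 (SE 0.25, 95% CI −0.61 to 0.45), a value that turned to 0.16 within replicates 3 to 5. Me1, malic enzyme, which supplies NADPH, had 0.03 in shTet1 and −0.38 (SE 0.21, 95% CI −0.82 to 0.06) in shTet2 (limma adjusted p = 0.522).

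Acsl3 (chromosome 1, 78654400 to 78703562, plus strand) activates long-chain fatty acids to their CoA esters and sits on lipid droplets. Values were 11.19, 10.83, 11.41, 10.81 and 11.22 in shScr libraries 1 to 5, 12.09, 11.86, 11.78, 11.50 and 11.75 in those of shTet1, and 11.49, 11.23, 10.66, 10.70 and 11.06 in those of shTet2. The shTet1 libraries were all above the shScr libraries and all above the shTet2 libraries, whereas shScr and shTet2 overlapped. Acsl3 differed by 0.70 (SE 0.17) between shTet1 and shScr and by −0.07 (SE 0.17, 95% CI −0.42 to 0.29) between shTet2 and shScr (limma adjusted p = 0.939). Between the knockdowns the difference was −0.77 (SE 0.17, 95% CI −1.13 to −0.41) and passed the test (limma adjusted p = 0.0127, exact permutation p = 0.00794). It missed the threshold in the subsets of fewer libraries, at adjusted p = 0.128 within replicates 1 and 2, 0.0637 within replicates 3 to 5 and 0.0608 without the 4 libraries of high receptor reads. Gpam, which starts glycerolipid synthesis, had 0.18 in shTet1 and −0.05 in shTet2.

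The mevalonate steps lead from HMG-CoA to farnesyl pyrophosphate. Of the 5 genes measured, 4 were higher in shTet1, with a median of 0.31, and 4 were higher in shTet2, with a median of 0.07. The shTet1 median was 0.11 without shScr replicate 4 and 0.18 without shTet1 replicate 1. Between the knockdowns the median was −0.13, and 0.03 without shTet2 replicate 4. Mvd, the decarboxylase that gives isopentenyl pyrophosphate, had the largest shTet1 difference. Values were 8.79, 8.83, 8.91, 8.44 and 9.08 in shScr libraries 1 to 5, 9.36, 9.44, 9.17, 9.10 and 9.13 in those of shTet1, and 9.01, 9.01, 8.76, 8.70 and 8.83 in those of shTet2. All shTet1 libraries were above all others for Mvd, by little. The difference was 0.43 (SE 0.14) in shTet1 and 0.05 (SE 0.14, 95% CI −0.24 to 0.34) in shTet2 (limma adjusted p = 0.941), and −0.38 between the knockdowns (limma adjusted p = 0.16, and 0.0378 with the replicate block), with pairs from −0.43 to −0.30. Idi1, the isomerase of the next step, was low in replicate 4 of each group, at 9.24, 10.03 and 9.53, against 10.42 or more in the other 12 libraries. Its differences were 0.37 (SE 0.29) in shTet1 and 0.20 (SE 0.29) in shTet2. Fdps, farnesyl pyrophosphate synthase, had 0.31 (SE 0.26) and 0.21 (SE 0.26) in the same order, and Pmvk, phosphomevalonate kinase, had −0.02 and −0.15.

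From squalene to cholesterol, 12 of 12 genes were higher in shTet1, with a median of 0.39 (0.25 without shScr replicate 4) and a range from 0.07 to 0.64. In shTet2, 5 of 12 were higher, with a median of −0.02 and a range from −0.36 to 0.42. All 12 were lower in shTet2 than in shTet1. Sc5d (chromosome 9, 42062260 to 42072383, minus strand), the sterol C5 desaturase of the last steps, varied little within shScr. Values were 9.24, 9.22, 9.17, 9.31 and 9.10 in shScr libraries 1 to 5, 9.93, 9.66, 9.59, 9.81 and 9.51 in those of shTet1, and 9.22, 9.16, 8.73, 9.18 and 8.93 in those of shTet2. The shTet1 libraries stood above all others, while shScr and shTet2 overlapped. Sc5d differed by 0.49 (SE 0.13) between shTet1 and shScr and by −0.16 (SE 0.13, 95% CI −0.44 to 0.11) between shTet2 and shScr (limma adjusted p = 0.706). Between the knockdowns it differed by −0.66 (SE 0.13, 95% CI −0.93 to −0.38), which passed the test (limma adjusted p = 0.00575, exact permutation p = 0.00794). It missed the threshold within replicates 1 and 2 (adjusted p = 0.109), within replicates 3 to 5 (0.0985) and without the 4 libraries of high receptor reads (0.0536).

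Lbr, the most abundant gene of these steps, also kept shTet2 below shTet1. Values were 12.48, 12.37, 12.60, 11.93 and 12.48 in shScr libraries 1 to 5, 12.89, 12.76, 12.77, 12.56 and 12.64 in those of shTet1, and 12.45, 12.31, 12.23, 11.93 and 12.33 in those of shTet2. The lowest shTet1 library was above the highest shTet2 library, and shScr reached from the lowest shTet2 value into the shTet1 range. The difference between the knockdowns was −0.47 (SE 0.14, 95% CI −0.76 to −0.19), just outside the threshold (limma adjusted p = 0.0599, exact permutation p = 0.00794) and inside it with the replicate block (adjusted p = 0.00303). Cyp51, the lanosterol demethylase, differed by 0.54 (SE 0.20) in shTet1, by −0.09 (SE 0.20) in shTet2 and by −0.63 (SE 0.20, 95% CI −1.04 to −0.22) between the knockdowns (limma adjusted p = 0.0832, and 0.00139 with the replicate block). The exact permutation p of Cyp51 between the knockdowns was 0.0556. Sc4mol and Nsdhl, which take part in removing the C4 methyl groups, had 0.63 (SE 0.27) and 0.64 (SE 0.22) in shTet1. In shTet2 these enzymes parted, with −0.02 for Sc4mol and 0.42 (SE 0.22, 95% CI −0.05 to 0.88) for Nsdhl (limma adjusted p = 0.494). For Nsdhl, shScr replicate 2 was at 7.51 and the other shScr libraries between 8.32 and 8.87.

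**Figure D3:**
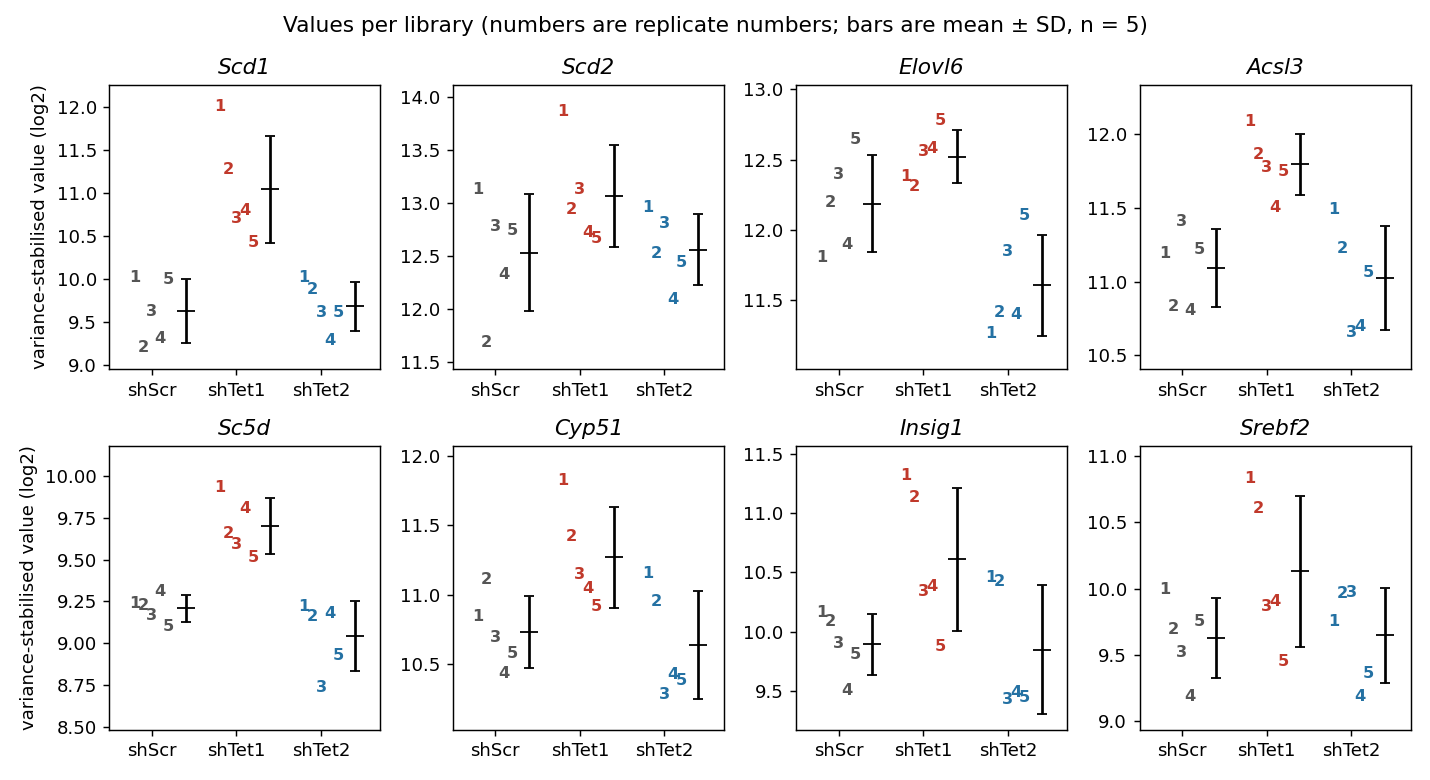
Variance-stabilised values (log2) of Scd1, Scd2, Elovl6, Acsl3, Sc5d, Cyp51, Insig1 and Srebf2 in each library, drawn as its replicate number, with mean ± SD beside each group (n = 5). The shTet1 libraries stand above all others for Scd1, Acsl3 and Sc5d, and for Insig1 and Srebf2 only replicates 1 and 2 of shTet1 do. For Acsl3 the gap is small, with shTet1 replicate 4 at 11.50 and shTet2 replicate 1 at 11.49.

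Among the regulators, Srebf2 and Insig1 were higher in shTet1 in part of the libraries. Srebf2 (chromosome 15, 81977696 to 82035806, plus strand) encodes the SREBP of sterol synthesis. Values were 9.99, 9.69, 9.52, 9.18 and 9.75 in shScr libraries 1 to 5, 10.83, 10.60, 9.86, 9.90 and 9.45 in those of shTet1, and 9.75, 9.96, 9.97, 9.18 and 9.36 in those of shTet2. In shTet1, replicates 1 and 2 were above all other libraries and replicates 3 to 5 were within the range of the other groups. Srebf2 differed from shScr by 0.50 (SE 0.24) in shTet1, which was 0.88 within replicates 1 and 2 and 0.25 within replicates 3 to 5. In shTet2 the difference was 0.02 (SE 0.24, 95% CI −0.48 to 0.52) (limma adjusted p = 0.988), and between the knockdowns −0.48 (SE 0.24, 95% CI −0.98 to 0.01) (limma adjusted p = 0.337, exact permutation p = 0.151). Srebf1, the SREBP of fatty acid synthesis, averaged 8.80 ± 0.53 (SD, n = 5) in shScr, against 9.17 ± 0.57 in the shTet1 libraries and 8.91 ± 0.37 in the shTet2 libraries. Its differences were 0.37 (SE 0.27) and 0.11 (SE 0.27, 95% CI −0.46 to 0.68) (limma adjusted p = 0.936).

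Insig1 (chromosome 5, 28397952 to 28405201, plus strand), which retains SCAP and is itself an SREBP target, had the largest shTet1 difference of the regulators. Values were 10.16, 10.09, 9.90, 9.51 and 9.81 in shScr libraries 1 to 5, 11.32, 11.13, 10.34, 10.38 and 9.87 in those of shTet1, and 10.46, 10.42, 9.43, 9.49 and 9.45 in those of shTet2. Replicates 1 and 2 were high in shTet1 and also the highest within each other group. Insig1 differed from shScr by 0.71 (SE 0.27) in shTet1, with same-numbered pairs from 0.06 to 1.16, and by −0.04 (SE 0.27, 95% CI −0.60 to 0.51) in shTet2 (limma adjusted p = 0.974). Between the knockdowns it differed by −0.76 (SE 0.27, 95% CI −1.32 to −0.20) (limma adjusted p = 0.135, and 0.0022 with the replicate block, exact permutation p = 0.0794), with pairs from −0.92 to −0.42. Insig2, its relative, had 0.18 and −0.03, Stard4, a sterol carrier, had 0.41 and −0.09, and Scap had −0.02 and 0.04, in shTet1 and shTet2.

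The members varied together between libraries of a group. The median deviation of the 36 members from their own means over all libraries was 0.06, −0.07, −0.08, −0.49 and −0.09 in shScr replicates 1 to 5. It was 0.65, 0.43, 0.17, 0.05 and −0.02 in shTet1 and 0.21, 0.16, −0.23, −0.58 and −0.23 in shTet2. Replicates 1 and 2 were therefore above replicates 3 to 5 in each knockdown group. In shScr the order was the same, but replicate 2 was barely above replicates 3 and 5. Replicate 4 was the lowest in shScr and in shTet2, while the same median over all genes stayed between −0.06 and 0.07. The labels give no batch for the replicate numbers. Within replicates 1 and 2, the members' median difference was 0.44 in shTet1 and 0.18 in shTet2, and within replicates 3 to 5 it was 0.25 and −0.10. By same-numbered pairs, the median in shTet1 was 0.51, 0.40, 0.21, 0.49 and 0.080 for pairs 1 to 5, and between the knockdowns it was −0.51, −0.39, −0.36, −0.57 and −0.21.

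**Figure D4:**
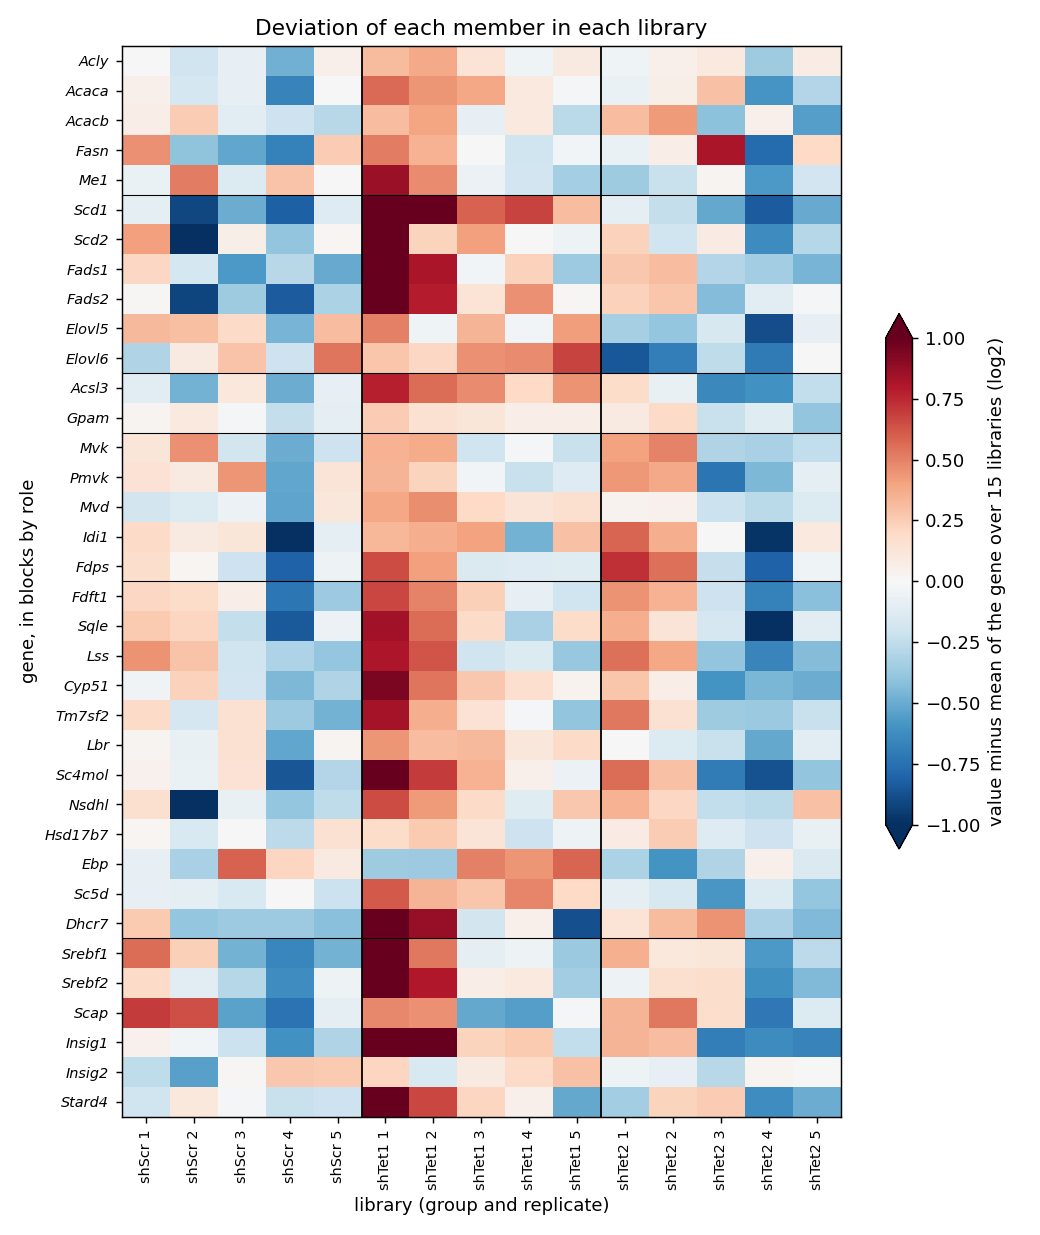
Value of each member minus its mean over the 15 libraries (log2, colour, cut at 1 either way), with genes in blocks by role and libraries by group and replicate. Red columns stand at shTet1 replicates 1 and 2, where the median deviation was 0.65 and 0.43, and blue columns at replicate 4 of shScr and shTet2, at −0.49 and −0.58.

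The libraries with high receptor reads included the low ones, shScr replicate 4 and shTet2 replicate 4, and also shTet1 replicates 3 and 4. Without these 4 libraries the members' median difference was 0.34 in shTet1, 0.02 in shTet2 and −0.33 between the knockdowns, where 1 member (Scd1) was called in place of 4 (1.77% of all genes). With the receptor share as a covariate, 36 of 36 members were higher in shTet1, with a median of 0.40. The summed pluripotency markers of shTet1 also lay above those of all shScr libraries, by the ranges given above, and the primitive endoderm and mesenchymal markers differed between groups as described there. The part of these measures in the member values was not tested.

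Genes of the same pathways outside the list gave smaller medians than the members in shTet1. Of 18 other SREBP targets and processing genes, 14 were higher in shTet1 with a median of 0.19, and 11 in shTet2 with 0.02. Of 10 receptors and targets of LXR, which senses oxysterols, 8 were higher in shTet1 with 0.16 and 7 in shTet2 with 0.15. Of 14 PPAR and fatty acid oxidation genes, 9 were higher in shTet1 with 0.09 and 7 in shTet2 with 0.00. In each of the 3 comparisons, 0 of these 42 genes passed the test in limma, in either direction, and at an unadjusted p under 0.05 the counts were 4 in shTet1, 5 in shTet2 and 3 between the knockdowns, where 11.8%, 11.6% and 15.7% of all genes were. The largest shTet1 difference of the LXR list was that of Mylip, a ubiquitin ligase for the LDL receptor, with 0.51 there and 0.32 in shTet2, and for oxidation Cpt1a, the gate of mitochondrial fatty acid import, with 0.57 and 0.33 in the same order.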

How the data were processed

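The 37 genes and the other gene lists were chosen with earlier results of these data known. Per the labels and the study's methods, the authors trimmed reads (Trim Galore 0.3.3), aligned them to mm9 (TopHat2 2.0.9, with 1 position kept per read), counted them per gene in Seqmonk and applied DESeq2's variance-stabilising transformation. The deposited gene values are on this log2 scale. Undoing the transformation gave whole reads (within 0.05 reads) for 100% of the values below 200 reads, which gave depth, normalised reads and levels per length (GENCODE vM1 exons).

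Differences were fitted with limma 3.58.1 (R 4.3.3, lmFit, eBayes with trend) on all 15 libraries with no term but the group, for the 19490 genes above the table minimum in at least 5 libraries, two-sided, and p-values were adjusted by Benjamini-Hochberg. Exact permutation tests compared 5 with 5 libraries, without adjustment for the number of genes. Wherever the groups do not overlap, the exact p is fixed at its smallest value and adds nothing to the separation. Same-numbered libraries were checked for pairing through the correlation of their deviations across genes. It was 0.374 to 0.657 for shTet1 against shScr and 0.330 to 0.731 for shTet2 against shTet1 (5 of 5 pairs over 0.1), but 0.00789 to 0.769 for shTet2 against shScr (4 of 5). Correlations of gene values within groups were 0.969 to 0.994. The variance between read counts of replicates was at least 18.3 times that of counting error (chi-square per degree of freedom).

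Named members were Scd1, Scd2, Srebf1, Srebf2, Insig1 and Fasn, members called in any comparison, and in each role group those with the highest level and the largest difference per knockdown. From the LXR and oxidation lists, the gene with the largest shTet1 difference was named, and for the SREBP list it is not reported here. Fads1, Fads2, Elovl5, Acacb, Sc4mol, Cyp51, Gpam, Pmvk, Tm7sf2, Sqle, Ebp, Insig2, Stard4 and Scap, and the promoter motifs, were chosen after their values were seen. Alternatives varied the filter, variance trend, groups in the fit, scaling, array weights, count model (limma-voom), pseudocount of 1, receptor covariate, replicate block, call threshold, gene length and libraries. Intervals cover the spread between libraries. The repeat table was not used.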

Additional observations from a re-analysis of the deposited data

Results flagged for a closer look

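Among 54 groups of 5 libraries examined (17 named members and the members' median in each group), 3 held a library far from the other 4, where chance gives about 2.7. Idi1, the isopentenyl pyrophosphate isomerase, was at 9.24 in shScr replicate 4 and at 10.03 in shTet1 replicate 4, below the rest of each group, and most of its transcript occurs at a further place in the genome. The median deviation of the members was −0.49 in shScr replicate 4, below the other 4 shScr libraries.

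In the limma test of shTet2 against shTet1, 3 members were called beside Scd1. This comparison uses the same shTet1 libraries as the one that prompted the list. The differences were −0.92 for Elovl6 (adjusted p = 0.00561), −0.77 for Acsl3 (adjusted p = 0.0127) and −0.66 for Sc5d (adjusted p = 0.00575). For each of them all shTet2 libraries were below all shTet1 libraries, so that same-numbered pairs add nothing. None of the 3 was called within replicates 3 to 5 or without the 4 libraries of high receptor reads. Acsl3 and Sc5d were not called within replicates 1 and 2 either.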

How the results depend on the processing

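The members' median difference kept its sign in shTet1 (0.25 to 0.46) and between the knockdowns (−0.45 to −0.25) under every alternative run, whereas in shTet2 it lay between −0.10 and 0.18. Counts of called members depended more on the processing. In shTet1 the 1 called member became 0 with only the 2 groups compared, with limma-voom scaled by total gene reads, within replicates 3 to 5 or without the 4 libraries of high receptor reads, 3 after adjusting for receptor reads (0.487% of all genes), 4 within replicates 1 and 2 (2.02%) and 12 with the replicate block (4.80%). Leaving out single libraries gave 0 (shScr replicate 2, 3 or 4, or shTet1 replicate 1, 2 or 4) to 2 calls, and with the block 3 (without shScr replicate 1) to 16, with 5 without shTet1 replicate 1 or 2 and 7 without shTet1 replicate 4. In shTet2 the count of 0 became 1 with array weights (Elovl6, 1.45% of all genes) and 2 with the replicate block (Elovl5 and Elovl6, 4.31%), where the numbers did not pass as pairing. Between the knockdowns the count of 4 became 1 within replicates 3 to 5 (0.786% of all genes) or without the 4 libraries (1.77%), and 16 with the block (11.2%), which ranged from 9 (without shTet1 replicate 4) to 17 over single libraries left out. Shares of all genes are not given here for single libraries left out or for the settings with 0 calls in shTet1. Nothing is read from those counts.

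Median differences moved beyond the spread between libraries within replicates 1 and 2, to 0.99 for desaturation and elongation in shTet1 and 0.21 for activation and glycerolipid entry in shTet2. Scd1 in shTet2 against shScr turned to −0.054 with median centring and −0.14 within replicates 3 to 5, and ranged from −0.052 to 0.15 over libraries left out. Fasn between the knockdowns turned to 0.16 within replicates 3 to 5 and ranged from −0.27 to 0.12. The cause was not tested. Over single libraries left out, the median of each of the 6 role groups in shTet2 took both signs. Whether depth limits the member values was not tested, and the fewest normalised reads were those of Tm7sf2 (44.2 in shScr replicate 5).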
